A study of Mus musculus with 6 samples.

Results

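The genes described here are 39 mouse genes of mitosis, covering the cyclins and kinases of mitotic entry, the spindle checkpoint, the kinetochore, the spindle motors and the machinery of cytokinesis. They were chosen by name from their known function, with earlier results of these data known. All 39 were found among the 27202 genes of the deposited table. RNA was sequenced from the colon as 3 libraries of genotype Nedd4l fl/fl Villin Cre (cKO) and 3 of Nedd4l fl/fl littermates (WT). All mice were given 2% DSS and sampled on day 7 at 8 to 10 weeks of age. Both groups carried the floxed *Nedd4l* allele and both received DSS, so neither is an untreated control. Villin drives Cre in the intestinal epithelium, which leaves *Nedd4l* in the other cells of the colon. *Nedd4l* encodes a HECT-type ubiquitin ligase, and DSS is a detergent-like polysaccharide that injures the colonic epithelium. The comparison addresses which transcripts differed in the inflamed colon when the epithelium lacked *Nedd4l*. Whether each library came from a separate animal is not spelled out beyond these labels, so p-values measure the spread between these libraries.

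In dividing cells, cyclin B and CDK1 drive entry into mitosis, kinetochores attach chromosomes to spindle microtubules, and the spindle checkpoint holds the anaphase-promoting complex until all are attached. Separase then frees the sister chromatids, and the central spindle and an actomyosin ring divide the cell. In the colon most such divisions take place in the lower crypt, and many of these genes are transcribed mainly in G2 and M phase, through promoters that carry CCAAT boxes and the cell cycle genes homology region (CHR).

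Promoter windows of 300 bases, from 250 before to 50 after the annotated start (RefSeq, GRCm38.p6), were held for 32 of the 39 genes. The CHR letters, TTTGAA or TTCGAA on either strand, occurred in 26 of 32 genes (81.2%) against 21.7% of 27025 genes with a window. CCAAT on either strand occurred in 24 of 32 (75.0%) against 41.1%, and both motifs occurred together in 22 of 32 (68.8%) against 8.61%. A gene with several windows was counted once if any of them held the motif. TTCGAA reads the same on both strands and was counted once per position. The first base of the CHR had a median position of 3 from the start over 39 matches, and that of CCAAT had a median of -62 over 53 matches. These matches were counted per window, so sites in the overlapping windows of *Ect2* and of *Prc1* entered more than once. Among members higher in cKO, 12 of 15 held a CHR, and among members lower in cKO 14 of 17 did. The 5 windows below show genes from both sides, *Ccnb2* (chr9:70421505-70421804, minus strand) and *Cdc20* (chr4:118437294-118437593, minus strand), both higher in cKO, *Ccnb1* (chr13:100786437-100786736, minus strand), higher in cKO without a CHR match in the window, *Cdk1* (chr10:69352863-69353162, minus strand), with groups that overlapped, and *Espl1* (chr15:102296043-102296342, plus strand), lower in cKO. Each runs 5′ to 3′ on the strand of the gene, and capitals mark the CHR and CCAAT letters on either strand (CCAAT on the other strand reads ATTGG, and TTTGAA reads TTCAAA).
Ccnb2: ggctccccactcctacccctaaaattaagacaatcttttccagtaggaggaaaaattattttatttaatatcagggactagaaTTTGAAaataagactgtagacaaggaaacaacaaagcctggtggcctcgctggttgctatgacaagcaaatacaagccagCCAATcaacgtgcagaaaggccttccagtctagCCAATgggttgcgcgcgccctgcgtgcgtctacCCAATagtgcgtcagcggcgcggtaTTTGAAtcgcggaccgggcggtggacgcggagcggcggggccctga
Cdc20: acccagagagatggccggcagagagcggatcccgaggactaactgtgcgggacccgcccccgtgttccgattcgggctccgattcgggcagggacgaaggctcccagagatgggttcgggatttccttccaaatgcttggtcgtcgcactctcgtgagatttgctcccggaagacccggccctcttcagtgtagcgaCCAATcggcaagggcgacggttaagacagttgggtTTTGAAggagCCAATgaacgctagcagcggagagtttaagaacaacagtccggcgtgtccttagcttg
Ccnb1: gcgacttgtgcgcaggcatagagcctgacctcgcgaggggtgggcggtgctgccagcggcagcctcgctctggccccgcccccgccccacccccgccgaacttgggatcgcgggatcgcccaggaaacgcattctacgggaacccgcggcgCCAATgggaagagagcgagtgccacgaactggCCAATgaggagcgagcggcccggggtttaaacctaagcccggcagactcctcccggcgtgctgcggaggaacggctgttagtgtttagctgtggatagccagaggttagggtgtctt
Cdk1: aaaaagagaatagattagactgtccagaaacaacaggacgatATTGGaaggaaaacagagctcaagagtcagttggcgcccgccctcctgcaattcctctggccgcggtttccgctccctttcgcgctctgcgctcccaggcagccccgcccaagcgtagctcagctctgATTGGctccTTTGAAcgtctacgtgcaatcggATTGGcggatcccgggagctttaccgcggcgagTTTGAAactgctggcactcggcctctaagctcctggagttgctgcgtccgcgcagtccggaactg
Espl1: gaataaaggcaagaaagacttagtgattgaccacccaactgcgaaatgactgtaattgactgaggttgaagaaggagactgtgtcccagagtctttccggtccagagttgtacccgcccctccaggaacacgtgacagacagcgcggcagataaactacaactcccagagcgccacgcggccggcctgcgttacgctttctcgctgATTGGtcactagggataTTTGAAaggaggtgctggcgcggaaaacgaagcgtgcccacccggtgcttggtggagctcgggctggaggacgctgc
The *Ccnb2* window held 3 CCAAT matches, at positions -87, -54 and -21, and CHR matches at -167 and 5. *Cdc20* held a CHR at -18 between CCAAT matches at -53 and -8, and *Espl1* held a CHR at -27 after a CCAAT at -44. In *Ccnb1* CCAAT stood at -99 and -67. A match describes letters in the window and is not evidence of binding.

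Normalized counts are reads divided by a size factor of the library. In units of the smallest step of the values in each library, which is what 1 read would be worth, the libraries summed to 14914367 to 17547270. *Nedd4l* had 476, 942 and 566 normalized counts in cKO replicates 1 to 3 and 1241, 1271 and 1266 in WT, a log2 fold change of -0.99 ± 0.24 (SE, n = 3 per group; limma adjusted p = 0.225). The second cKO library thus kept more *Nedd4l* than the other cKO libraries. Its mean correlation over genes was 0.977 with WT libraries and 0.966 with the other cKO libraries. The first cKO library had lower means, at 0.948 with WT libraries and 0.963 with the other cKO libraries. The 0.966 includes the correlation with that first library, so these means do not show that the second library was closer to WT than to the third cKO library. Without the second cKO library the *Nedd4l* difference was -1.28 (limma adjusted p = 0.0131). That library had the highest *Nedd4l* value in cKO, so a larger difference without it follows from the choice. With any other single library left out, the limma adjusted p for *Nedd4l* was 0.226 to 0.512. In the limma fit on log2(value + 1), 0 of 16246 genes tested passed an adjusted p of 0.05 (0%). At an unadjusted p under 0.05, 1151 genes (7.08%) were lower in cKO and 1122 (6.91%) higher. All cKO libraries lay below all WT libraries for 1767 genes (10.9%) and above for 1706 (10.5%). Of all genes tested 49.8% were lower in cKO at any size. With 3 libraries against 3, an exact permutation test cannot go below p = 0.1.

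Markers of the cells in the tissue were checked in the same way, since in bulk tissue fewer cells of a type and less RNA per cell cannot be told apart. The 10 epithelial markers summed to 199540 to 224733 normalized counts in cKO and 213002 to 238844 in WT, with 7 of 10 lower in cKO. The 8 crypt base genes tested had a median log2 difference from the WT mean of -0.78 in cKO replicate 1, -0.14 in replicate 2 and 0.12 in replicate 3. All 8 fibroblast markers were higher in cKO, with sums of 21909 to 43411 against 11134 to 18983 in WT. Taken singly, 4 of the 8 lay above WT without overlap (50%, against 10.5% of all genes). All 10 myeloid markers were also higher, with sums of 9547 to 14767 against 5715 to 7762, and 3 of the 10 did not overlap (30%). Of these 10, *S100a8* had 2708, 31 and 417 normalized counts in cKO replicates 1 to 3, and *S100a9* had 2680, 28 and 348. The 8 markers of B cells, which can also divide in the inflamed colon, summed to 1942 to 5160 in cKO and 1472 to 3543 in WT, and the 8 germinal centre B cell markers to 855 to 1091 and 603 to 980. All 8 smooth muscle markers were lower, at 5805 to 11363 against 5228 to 21704. T cell markers summed to 1011 to 1359 against 964 to 1227, and endothelial markers to 2448 to 4109 against 1707 to 2420. No marker was at 0 in any library. The marker lists were also chosen with earlier results of these data known. The part of these marker shifts in the mitotic values was not tested.

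The mitotic genes differed in both directions and by small amounts. Of the 39 members, 21 were lower and 18 higher in cKO. Their log2 fold changes ran from -0.35 to 0.45 around a median of -0.01, where all genes tested had a median of 0.00. None passed an adjusted p of 0.05 (limma, smallest adjusted p 0.211). At an unadjusted p under 0.05, 6 members (15.4%) were higher, *Cdc25b*, *Ccnb1*, *Ccnb2*, *Cdc20*, *Cenpa* and *Cenpf*, and 2 (5.13%) were lower, *Aurkb* and *Espl1*, against the 6.91% and 7.08% of all genes. All cKO libraries lay above all WT libraries for 7 members (17.9%, against 10.5% of all genes), these being the 6 above and *Cdc25c*. All lay below for 4 (10.3%, against 10.9%), *Ttk*, *Aurkb*, *Incenp* and *Kif11*. All 39 members passed the filter of a mean of 10 normalized counts, with means over the 6 libraries from 128 to 6538. The 95% interval of the fold change lay within a fold of 1.5 either way for 30 of the 39.

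**Figure D1:**
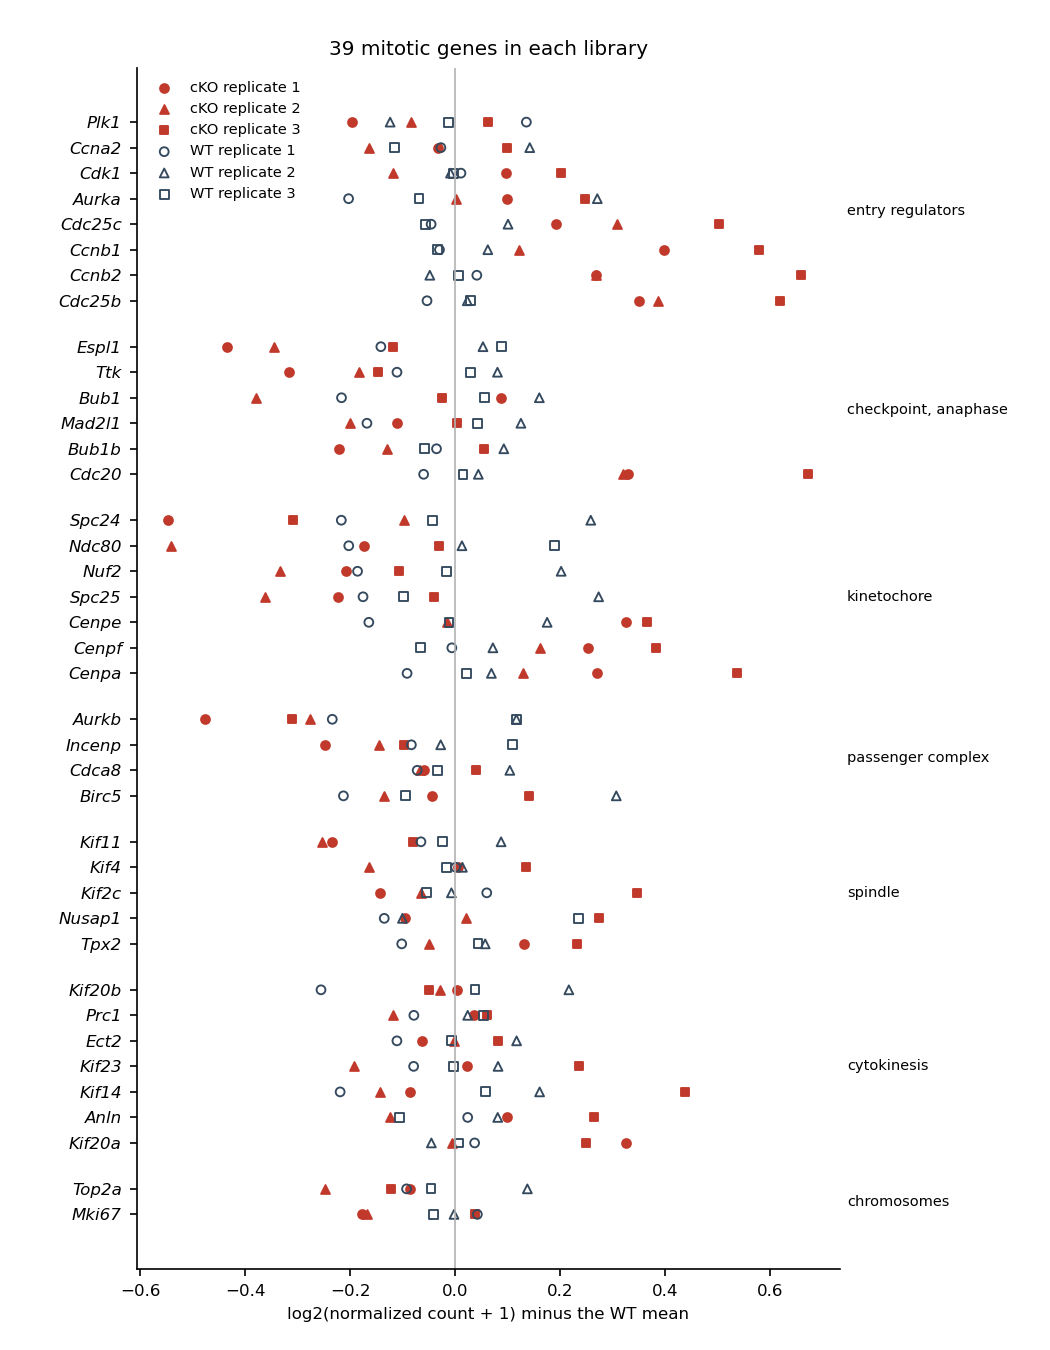
Each row is 1 of the 39 mitotic genes, grouped by function, and each point is 1 library, plotted as log2(normalized count + 1) minus the WT mean of that gene (filled red, cKO, open dark, WT, with shapes for replicates 1 to 3). The filled points of *Cdc25b*, *Ccnb1*, *Ccnb2* and *Cdc20* all lie to the right of the open points, and those of *Aurkb* and *Kif11* all lie to the left.

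The libraries themselves ordered differently from the genotypes. Summed over the 39 members, the cKO libraries held 35097, 33503 and 39214 normalized counts and the WT libraries 34936, 38109 and 35962. The third cKO library was highest and the second was lowest of all 6. The third cKO library was the highest of the 6 for 17 members and the second WT library for 16, whereas the second cKO library was the lowest for 13 and the first WT library for 12. The SD of the log2 values was larger in cKO than in WT for 24 of the 39.

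Of the 8 mitotic entry regulators among the members, 6 were higher in cKO and 2 lower, around a median difference of 0.23 (log2). Of the 19 other genes tested that were listed as entry regulators, 15 were lower and 4 higher around a median of -0.11. That list mixes roles. It holds *Wee1* and *Pkmyt1*, the kinases that keep CDK1 inactive, and transcription factors such as *Foxm1* and *Mybl2*. Its median therefore does not give a direction of mitotic entry. *Cdc25b* (chr2:131186949-131198497), the phosphatase that first switches on cyclin-CDK complexes at mitotic entry, had 546, 561 and 659 normalized counts in cKO and 413, 435 and 437 in WT. The groups did not overlap, and the lowest cKO library lay above the highest WT library. This was a log2 fold change of 0.45 ± 0.11 (SE, n = 3 per group; limma unadjusted p = 0.00276, adjusted p = 0.211). *Ccnb2* (chr9:70407692-70421547), the Golgi-associated B-type cyclin partner of CDK1, had 661, 661 and 867 in cKO against 565, 531 and 551 in WT, without overlap. Its log2 fold change was 0.40 ± 0.12 (limma adjusted p = 0.278). *Ccnb1* (chr13:100778650-100786570), the main B-type cyclin, had 991, 818 and 1124 in cKO against 737, 785 and 735 in WT. The groups again did not overlap, with cKO replicate 2 nearest to WT, and the log2 fold change was 0.37 ± 0.12 (limma adjusted p = 0.293).

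The kinase that both cyclins activate lay near equality. *Cdk1* (chr10:69335146-69352938) had 811, 699 and 873 normalized counts in cKO and 764, 754 and 757 in WT. The WT libraries lay inside the cKO range, and the interval of the log2 fold change ran from -0.17 to 0.29 (limma adjusted p = 0.808). *Plk1* (chr7:122159439-122169873), the polo-like kinase of centrosomes and kinetochores, had 1403, 1517 and 1680.3 in cKO and 1768, 1476 and 1595 in WT. These groups overlapped, with an interval of -0.31 to 0.16 (limma adjusted p = 0.762). *Ccna2*, the cyclin of S and G2 phase, was at -0.03, and *Aurka*, the spindle pole kinase, at 0.12, both with overlapping groups. *Cdc25c*, a second CDK1-activating phosphatase, had the smallest counts of the members, with 129 to 161 in cKO and 109 to 121 in WT, and a log2 fold change of 0.33 (limma unadjusted p = 0.0788).

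Among the 6 checkpoint and anaphase genes, 5 were lower and 1 was higher, and the higher one stood apart. *Cdc20* (chr4:118432901-118437352), the activator of the anaphase-promoting complex, had 927, 921 and 1176 normalized counts in cKO against 707, 760.2 and 745 in WT. No cKO library fell within the WT range, and the log2 fold change was 0.44 ± 0.11 (limma unadjusted p = 0.00445, adjusted p = 0.219). *Espl1* (chr15:102296266-102324357), which encodes separase, had 424, 451 and 528 in cKO against 519, 595 and 609 in WT. Replicate 3 of cKO lay just above WT replicate 1, so the groups overlapped, with a log2 fold change of -0.30 ± 0.12 (limma unadjusted p = 0.0365, adjusted p = 0.334). *Ttk*, the checkpoint kinase MPS1, had 256 to 288 in cKO and 295 to 337 in WT, without overlap, at -0.22 (limma unadjusted p = 0.107). *Bub1*, *Bub1b* and *Mad2l1*, which take part in checkpoint signalling, lay between -0.11 and -0.10 with overlapping groups.

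**Figure D2:**
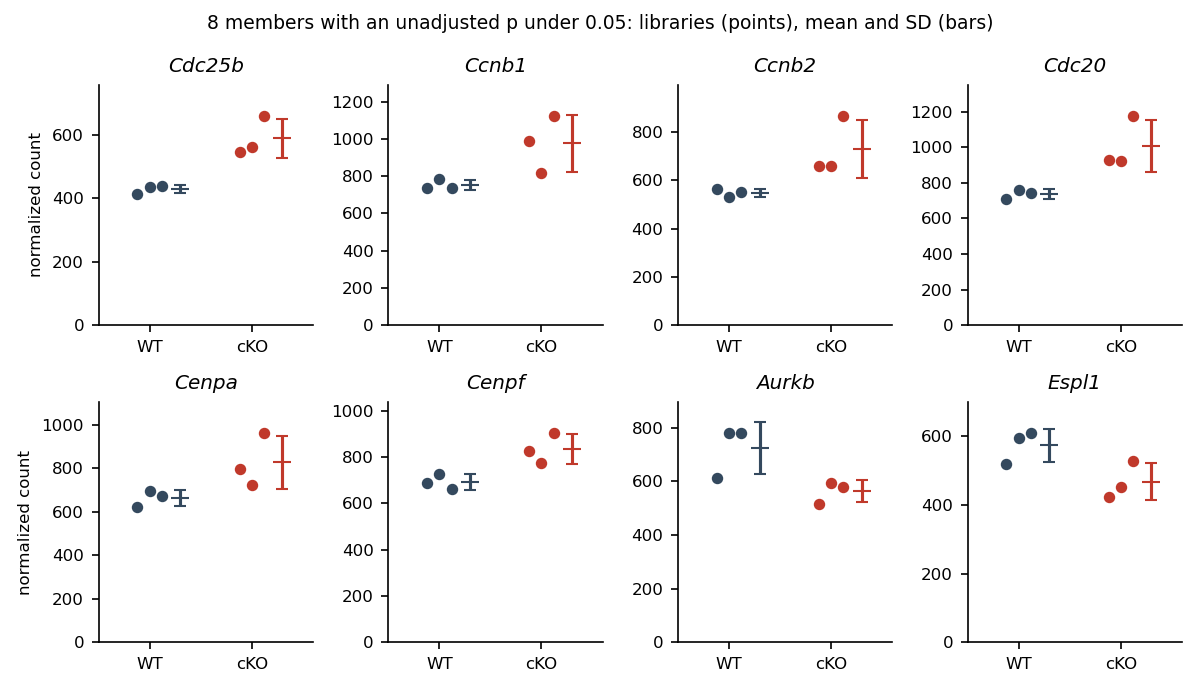
Normalized counts of the 8 members with an unadjusted p under 0.05, with 1 point per library and the mean and SD of each group beside them (WT dark, cKO red; axes start at 0). The cKO points lie above the WT points in *Cdc25b*, *Ccnb1*, *Ccnb2*, *Cdc20*, *Cenpa* and *Cenpf* and below in *Aurkb*, and in *Espl1* the highest cKO library passes the lowest WT library.

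Of the 7 kinetochore genes, 3 were higher and 4 lower in cKO. *Cenpf* (chr1:189640606-189688086), a large protein of the outer kinetochore corona, had 825, 775 and 904 normalized counts in cKO against 689, 728 and 661 in WT. *Cenpa* (chr5:30666777-30674830), the histone H3 variant that marks centromeres, had 798, 724 and 961 against 621, 695 and 672. Neither gene had overlapping groups, and the log2 fold changes were 0.27 ± 0.09 and 0.31 ± 0.12 (limma adjusted p = 0.306 and 0.322). *Cenpe*, the kinesin of the corona, was at 0.23 with overlapping groups (limma unadjusted p = 0.129). The 4 subunits of the NDC80 complex, which binds the microtubule end, were all lower in cKO, with log2 fold changes of -0.32 for *Spc24*, -0.25 for *Ndc80*, -0.22 for *Nuf2* and -0.21 for *Spc25*. None of these 4 had an unadjusted p under 0.05, and the groups overlapped in each, as in *Spc24* with 269, 368 and 318 in cKO and 339, 471 and 382 in WT. Their sizes varied, from -0.43 to -0.19 for *Spc24*, -0.36 to -0.10 for *Ndc80*, -0.31 to -0.11 for *Nuf2* and -0.30 to -0.06 for *Spc25* over the 15 alternatives. Without WT replicate 2 *Spc25* was at -0.07, *Nuf2* at -0.11 and *Spc24* at -0.19, and without cKO replicate 2 *Ndc80* was at -0.10. The grouping of these 4 was made after their values were seen.

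The 4 chromosomal passenger genes had a median difference of -0.10 on the log2 scale, and the direction held in all 15 alternatives for *Aurkb* and *Incenp* only. *Aurkb* (chr11:69045647-69051664), the kinase of the complex that corrects faulty attachments, had 517, 594 and 579.7 normalized counts in cKO against 611, 780.0 and 779.8 in WT. The groups did not overlap, though WT replicate 1 lay close to the cKO libraries, and the log2 fold change was -0.35 ± 0.12 (limma unadjusted p = 0.0205, adjusted p = 0.306). *Incenp* (chr19:9872297-9899533), the scaffold of the complex, had 967, 1039 and 1074 in cKO against 1084, 1127 and 1240.2 in WT. Its groups did not overlap either, with a smaller log2 fold change of -0.16 ± 0.09 (limma unadjusted p = 0.0992). *Birc5* (survivin) and *Cdca8* (borealin), the subunits that place the complex on chromosomes, were at -0.01 and -0.03 with overlapping groups. With library weights they stood at 0.12 and 0.030, and *Birc5* kept its sign in 11 of the 15 alternatives and *Cdca8* in 13.

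Spindle motors and microtubule proteins differed little. *Kif11* (chr19:37376403-37421859), the motor that pushes the spindle poles apart, had 1159, 1143 and 1290.4 normalized counts in cKO and 1304, 1449 and 1342 in WT. The cKO libraries all lay below the WT libraries, at a log2 fold change of -0.19 ± 0.09 (limma unadjusted p = 0.0588, adjusted p = 0.367). *Tpx2* (chr2:152847964-152895321), the activator of Aurora A on spindle microtubules, had 1075, 947 and 1152 against 913, 1020.2 and 1011, with overlapping groups and a log2 fold change of 0.11 (limma adjusted p = 0.641). *Kif2c*, a microtubule depolymerase, *Nusap1*, a microtubule bundler, and *Kif4*, a chromosome-borne kinesin, lay between -0.01 and 0.07.

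The 7 cytokinesis genes showed no member with an unadjusted p under 0.05 in either direction. *Kif20a*, the kinesin that carries the passenger complex to the central spindle, had 462, 367 and 438 normalized counts in cKO and 378, 357 and 370.5 in WT. Its groups overlapped through cKO replicate 2, and the log2 fold change was 0.19 ± 0.12 (limma adjusted p = 0.485). *Anln* (chr9:22332012-22389188), the anillin scaffold of the contractile ring, had 724, 620.2 and 813 in cKO and 687, 715 and 628 in WT, which overlapped, with a log2 fold change of 0.08 (limma adjusted p = 0.778). The others were the RhoA activator *Ect2*, the midzone bundler *Prc1*, and the kinesins *Kif14*, *Kif20b* and *Kif23*, and they lay between -0.02 and 0.07.

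*Top2a* and *Mki67*, widely used marks of proliferation with the largest counts of the members before correction for length, overlapped between genotypes. *Top2a* (chr11:98992943-99024189), the topoisomerase that untangles sister chromatids, had 4389, 3920.3 and 4281 normalized counts in cKO and 4368, 5124 and 4511 in WT. Its log2 fold change was -0.15 ± 0.09 (limma adjusted p = 0.465). *Mki67* (chr7:135689784-135716361), which coats mitotic chromosomes, had 5976, 6019.7 and 6943 against 6963, 6752 and 6572, at -0.10 ± 0.09 (limma adjusted p = 0.598). In both genes the cKO mean was below the WT mean, and in *Mki67* the third cKO library stood among the WT libraries.

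**Figure D3:**
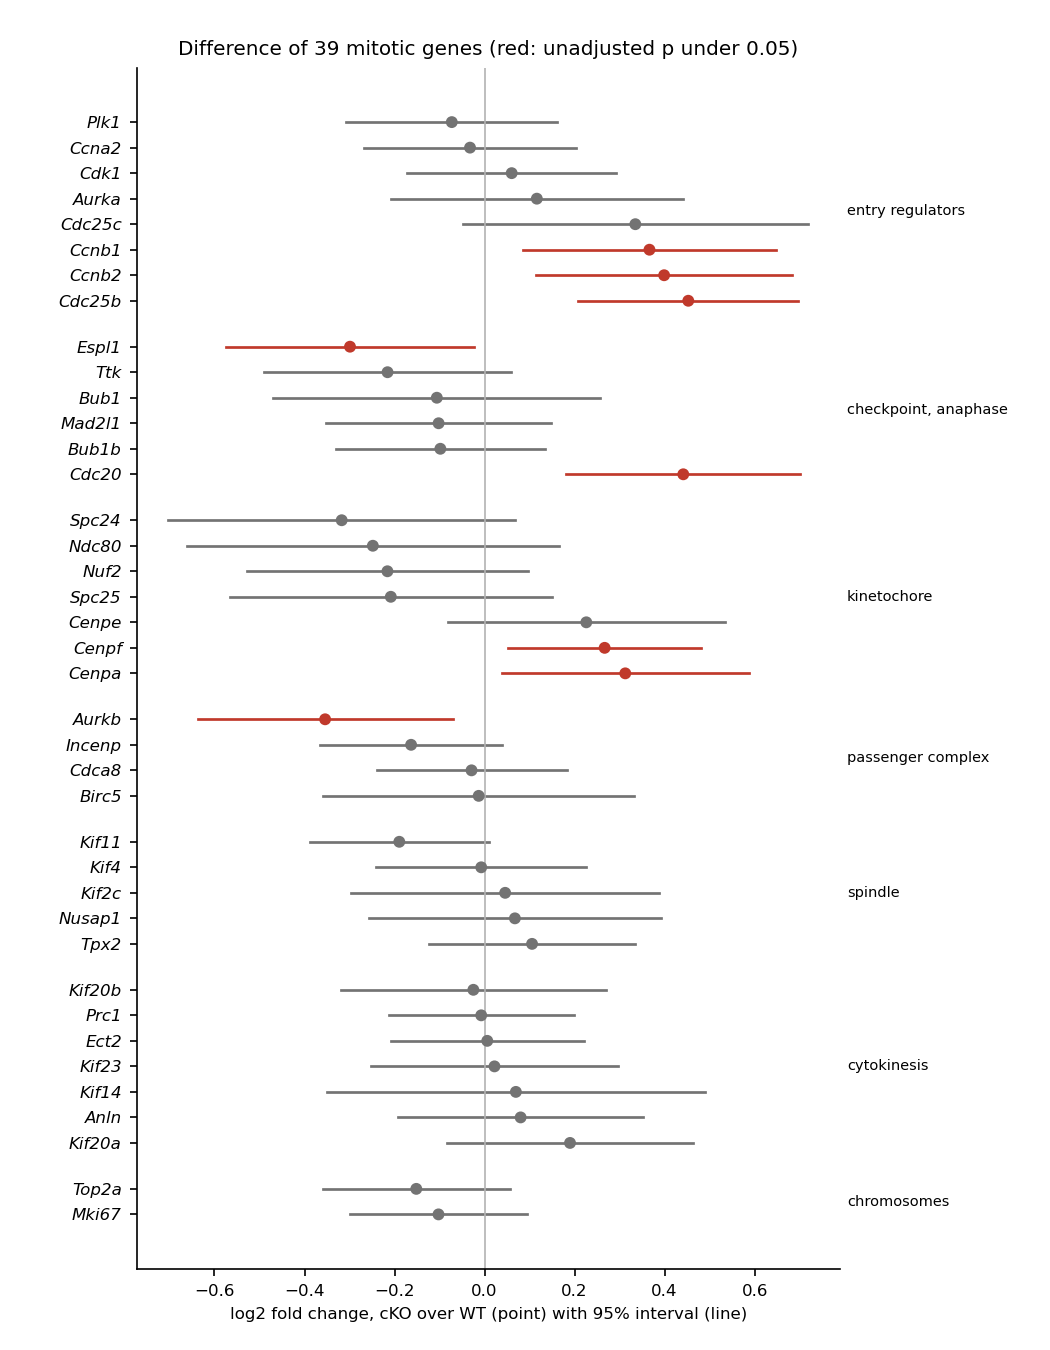
Log2 fold change of each of the 39 genes, cKO over WT (points), with the 95% interval of the limma fit (lines), grouped by function, and in red the 8 genes with an unadjusted p under 0.05. The red intervals lie to the right of 0 for 6 genes and to the left for *Aurkb* and *Espl1*, and the other 31 intervals cross 0.

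Levels between genes were compared per kilobase of the gene length that the authors deposited, so the order depends on that annotation. In WT the highest were *Plk1* (733 normalized counts per kilobase), *Mki67* (672) and *Top2a* (518), followed by *Ccna2* (406), *Cdc20* (395), *Ccnb2* (359) and *Incenp* (358). *Kif14* (34.3), *Ndc80* (37.7) and *Cenpf* (44.9) were lowest. In cKO the level of *Cdc20* was 539.6 per kilobase and that of *Ccnb2* was 477, so that both passed *Top2a* (466) in the order, while *Plk1* (697) and *Mki67* (627) stayed first and second.

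Ratios within a library do not depend on its size factor. The 7 pairs given here were chosen after the values were seen, so they are a description. The ratio of *Cdc20* to *Espl1* was 2.19, 2.04 and 2.23 in cKO and 1.36, 1.28 and 1.22 in WT. *Ccnb1* over *Ccna2* was 0.614, 0.555 and 0.636 against 0.455, 0.431 and 0.482, and *Cenpa* over *Aurkb* was 1.55, 1.22 and 1.66 against 1.02, 0.890 and 0.862. For these 3, and for *Ccnb2* over *Ccna2*, *Ccnb1* over *Cdk1* and *Cenpf* over *Ndc80*, all cKO ratios lay above all WT ratios. *Mki67* over *Top2a* overlapped, at 1.36, 1.54 and 1.62 against 1.59, 1.32 and 1.46.

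The calls at an unadjusted p rested in part on single libraries. Without cKO replicate 3, the highest library for all 6 of the higher genes, 3 members remained higher at an unadjusted p under 0.05 (4.92% of all genes), *Cdc25b*, *Ccnb2* and *Cdc20*, and *Ccnb1* was at 0.26, *Cenpa* at 0.20 and *Cenpf* at 0.21. In the same fit 3 were lower (4.79% of all genes), *Espl1*, *Aurkb* and *Kif11*. Without WT replicate 3 the same 3 members were called higher (5.05% of all genes) and none was called lower (5.05%). Without WT replicate 1 *Cenpa* and *Cenpf* dropped out, which left 4 higher (5.96% of all genes), and 2 were lower (5.26%). Without cKO replicate 2, the library with more *Nedd4l*, 8 members were higher (8.93% of all genes), now with *Cenpe* and *Kif20a*, and 2 were lower (8.77% of all genes), *Aurkb* and *Spc24*. *Aurkb* was no longer called without cKO replicate 1 (-0.29), WT replicate 2 (-0.30) or WT replicate 3 (-0.30). *Espl1* lost its call without any of these 3 libraries, and without cKO replicate 2 as well, at -0.23 to -0.28. Each of the 8 genes kept its direction in all 15 alternatives.

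When libraries were weighted by how well they matched their group in limma, 6 members passed an adjusted p of 0.05, all higher in cKO. These were *Cdc25b* (log2 fold change 0.57, adjusted p = 0.0212), *Cdc20* (0.61, adjusted p = 0.0212), *Ccnb2* (0.59, adjusted p = 0.0310), *Ccnb1* (0.52, adjusted p = 0.0353), *Cenpf* (0.36, adjusted p = 0.0462) and *Cenpa* (0.47, adjusted p = 0.0466). In that fit 1.61% of all genes were called higher and 2.27% lower, and no member was called lower. *Espl1* was at -0.18 and *Kif11* at -0.10 in that fit, both smaller differences than without weights. The third cKO library, in which all 6 genes were highest, had a weight of 4.39, against 0.414 to 1.34 for the other 5.

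Other genes of the mitotic machinery were compared as a list of 144, chosen with earlier results of these data known. From that list 141 were tested. Of these 100 were lower in cKO and 41 higher (median difference -0.11 on the log2 scale). At an unadjusted p under 0.05, 30 were lower (21.3%, against 7.08% of all genes) and 6 higher (4.26%, against 6.91%), and none passed an adjusted p of 0.05 (limma). *Ncapg2*, a condensin II subunit, had 667, 544 and 614 normalized counts in cKO and 936, 973 and 977 in WT, a log2 fold change of -0.66 (limma adjusted p = 0.116). *Wee1* and *Pkmyt1*, the kinases that hold CDK1 inactive and so oppose the CDC25 phosphatases, had 235, 323 and 274 against 459, 456 and 529, and 264, 296 and 300.2 against 432, 506 and 491. Both were lower in every cKO library, by log2 fold changes of -0.80 and -0.73 (limma adjusted p = 0.159 and 0.125).

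The mitotic kinase gene *Pbk* had 522, 489 and 449.7 normalized counts in cKO and 761, 794 and 712 in WT. *Kntc1*, a subunit of the complex that brings dynein to kinetochores, had 365, 324 and 351 against 525, 532 and 458. Neither overlapped between groups, with log2 fold changes of -0.63 and -0.54 (limma adjusted p = 0.121 and 0.172). *Gpsm2*, a protein of spindle orientation, was higher, with 1527, 1421 and 1451 normalized counts in cKO against 1049.8, 1102 and 1081 in WT (log2 fold change 0.44, limma adjusted p = 0.137). Of the transcription factors that drive G2 and M genes, *Mybl2* had 370.0, 244 and 275 in cKO and 381, 515 and 466 in WT, and *Foxm1* had 671, 614 and 638 against 668, 775 and 743. *Mybl2* did not overlap between groups, at -0.62 (limma adjusted p = 0.268), whereas *Foxm1* overlapped by 1 library, at -0.18 (limma adjusted p = 0.415). By function, 9 of 29 kinetochore genes, 6 of 21 chromosome structure genes, 4 of 19 entry regulators, 4 of 27 checkpoint genes, 4 of 29 spindle genes, 2 of 14 cytokinesis genes and 1 of 2 passenger genes were lower at an unadjusted p under 0.05, against 7.08% of all genes. Higher at that p, against 6.91% of all genes, were 2 of the spindle genes and 0 of the checkpoint and passenger genes. The kinetochore, chromosome structure, entry and cytokinesis genes had 1 each. The chromosome structure gene was *Hist1h1b*, with 11.5, 54.2 and 12.4 normalized counts in cKO and 4.9, 2.7 and 8.0 in WT. These counts lay near the filter of a mean of 10, and the value of cKO replicate 2 was the largest.

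**Figure D4:**
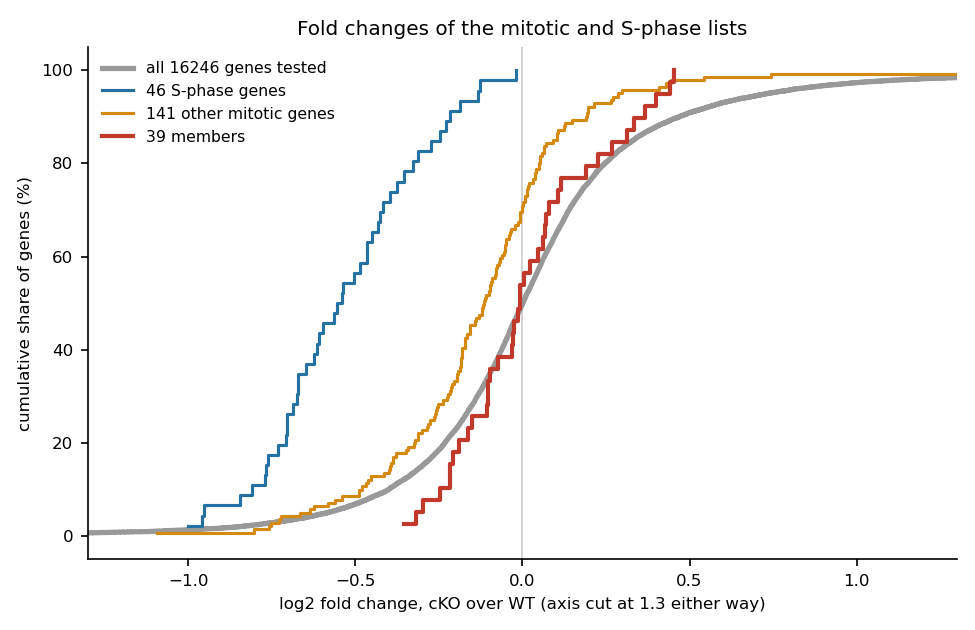
Cumulative share of genes (%) against the log2 fold change, cKO over WT, for the 39 members, the 141 other mitotic genes, the 46 S-phase genes and all 16246 genes tested, with the axis limited to 1.3 either way. The curve of the members crosses the curve of all genes near 0, while that of the S-phase genes lies wholly to the left of 0.

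Genes of the preceding cell cycle phase were measured beside these. Of 46 S-phase genes, which serve DNA replication and its licensing, 46 were lower in cKO, 36 at an unadjusted p under 0.05 (78.3%, against 7.08% of all genes). Their median difference was -0.55 on the log2 scale. None passed an adjusted p of 0.05 (limma, smallest adjusted p 0.116). This list was chosen with earlier results of these data known, so its counts are a description and not an independent contrast. The difference between this list and the mitotic members was not tested. By library, the S-phase median relative to the WT mean was -0.36, -0.58 and -0.73 in cKO, and the mitotic median was -0.04, -0.12 and 0.10. The third cKO library thus had the lowest S-phase median and the highest mitotic median of the 6.

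**Figure D5:**
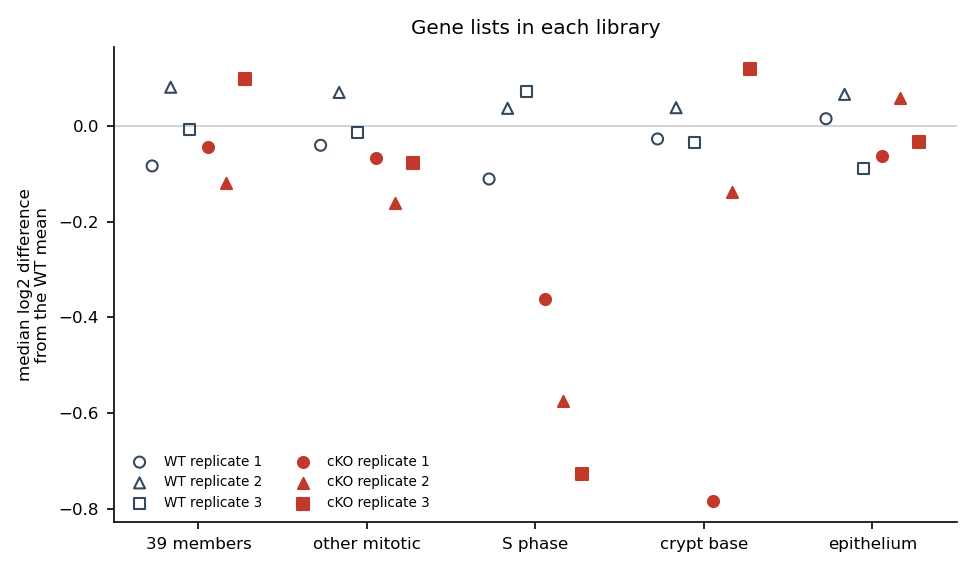
Median log2 difference from the WT mean of each gene list (vertical axis) in each library (filled red, cKO, open dark, WT, with shapes for replicates 1 to 3). For the 39 members cKO and WT libraries intermingle between -0.12 and 0.10, whereas the S-phase medians of cKO run from -0.36 to -0.73 and lie below those of WT.

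Some members share their position with another gene, and whether reads were counted by strand is not given in the sources used here. Of the 39, 14 overlapped another listed gene. *Cdc20* overlaps *Elovl1* on the opposite strand, which had a mean of 1584 normalized counts, above the 873 of *Cdc20* itself, and *Cdc25b* overlaps *Spef1* (364 against 509). *Kif20a* overlaps *Cdc23*, *Ccna2* overlaps *Exosc9* and *Kif4* overlaps *Pdzd11* in the same way. *Plk1*, the highest member per kilobase, overlaps *Gm44985* on the opposite strand (446 against 1573). *Cdca8* likewise overlaps *9930104L06Rik* (221 against 624). *Ccnb2* has a pseudogene copy, *Ccnb2-ps*, listed with a mean of 18.6 normalized counts in cKO and 23.7 in WT. How far reads of a neighbour or copy enter the values of these genes was not tested.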

How the data were processed

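RNA-seq of mouse colon tissue was analysed for 3 cKO and 3 WT libraries, grouped by the GEO labels. Total RNA had been extracted with TRIzol and made into NEBNext Ultra libraries. HISAT2 2.0.5 and featureCounts 1.5.0-p3 are named in the submitters' processing notes, which give the human build hg18, while the coordinates of 36 of the 39 genes are identical to GENCODE M21 (GRCm38). The authors deposited 1 table of normalized counts per gene (a signal, reads over a size factor). The same table holds the log2 fold changes, p-values and adjusted p-values that the authors deposited, which were not used.

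In each library the values were whole multiples of 1 step, to within 3.44e-06 of a whole number, and the sum in steps gave the depth of 14914367 to 17547270. The steps were used for depth only, and count models were not run. Values were tested as log2(value + 1) with limma 3.58.1 in R 4.3.3 (trend and robust) over genes with a mean of at least 10, p-values adjusted by Benjamini-Hochberg and read at 0.05. Fold changes are on the log2(value + 1) scale. The fit was also run on simulated data, drawn with independent noise for each gene and equal spread in every library. The libraries here differed in spread and in cell markers, so that run does not show how the fit behaves on them. Depth limits the counting error only.

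Per-library values are given for the 2 members with the smallest p in each functional group, *Cdk1*, *Ccnb1*, *Plk1*, *Aurkb*, *Top2a*, *Mki67*, the 6 other mitotic genes with the smallest p, *Foxm1* and *Mybl2*. *Spc24* was added after its values were seen. The members and lists were chosen with earlier results of these data known. Same-numbered replicates did not deviate together (r = -0.03, -0.09 and -0.06 over genes), and differently numbered ones were at -0.02 to 0.06. Such values cannot show whether same-numbered mice were related or handled together, and the main fit used no pairing. Another 15 settings were run (pseudocounts, filters, TMM and quantile scaling, library weights, the variance model, a replicate block and each library left out). Promoters came from RefSeq.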

Additional observations from a re-analysis of the deposited data

How the results depend on the processing

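Under the 15 alternatives 22 of the 39 mitotic genes kept their direction and 17 changed it at least once, the latter all with overlapping groups. Library weights raised the members higher at an unadjusted p under 0.05 to 10 and gave 6 at an adjusted p under 0.05, and limma without trend and robust left 1 lower. Leaving out 1 library each gave 0 to 3 members lower and 3 to 8 higher at an unadjusted p. Of all genes, 4.79% to 8.77% were lower and 4.92% to 8.93% higher without cKO replicate 2 or 3 or WT replicate 1 or 3. In the other alternatives the share of all genes at an unadjusted p was not counted. Counts at that p there do not set the members or the other mitotic genes apart from all genes. Over all genes, adjusted calls were 23 lower and 7 higher without a filter, 369 and 262 with weights, and 0 to 52 and 0 to 70 with 1 library left out. Other mitotic genes had 15 higher at an unadjusted p with weights, adjusted calls of 11 lower and 3 higher with weights and 1 lower without a filter, and with 1 library left out 16 to 32 lower and 2 to 8 higher at an unadjusted p and 0 to 2 lower at an adjusted p. S-phase genes lower at an adjusted p were 8 without a filter, 32 with weights and 0 to 12 with 1 library left out. *Nedd4l* was at -1.09 with weights and between -1.28 and -0.79 with 1 library left out. The cause of these shifts was not tested.

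With weights these genes changed sign: *Ccna2* 0.0836, *Plk1* 0.0240, *Bub1b* 0.0272, *Birc5* 0.124, *Cdca8* 0.0297, *Kif4* 0.0974, *Prc1* 0.0341, *Mki67* 0.00565. With 1 library left out these ranged across 0: *Cdk1* -0.0107 to 0.149, *Ccna2* -0.0982 to 0.0390, *Bub1* -0.214 to 0.0308, *Birc5* -0.119 to 0.141, *Cdca8* -0.0650 to 0.0233, *Kif2c* -0.104 to 0.14, *Kif4* -0.0791 to 0.0712, *Nusap1* -0.0365 to 0.185, *Kif14* -0.115 to 0.176, *Kif20b* -0.153 to 0.0837, *Kif23* -0.0855 to 0.13, *Prc1* -0.0466 to 0.0484, *Anln* -0.0127 to 0.182, *Ect2* -0.0494 to 0.0647.

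With the replicate number as a block, 6 members were higher and 3 lower at an unadjusted p, for which the share of all genes was not counted. In that fit 0 passed an adjusted p, and the pairing changed no adjusted call. The 2 planned count-model fits were not run. With 3 libraries a group, log2 differences of the members carried standard errors of 0.09 to 0.18.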
